A study of Mus musculus and Rattus norvegicus with 18 samples.

Results

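Counts of transfer RNAs (tRNAs) in mouse hearts with a conditional knockout of Mettl1 were set against those in control hearts, as shares of all tRNA counts. The table gave 1 column per genotype and 272 rows, each a tRNA named by its amino acid, its anticodon and a number for the variant of the tRNA body. The 208 rows with at least 100 counts in both columns were described, and these held 99.99% of the counts of each column. The other 64 rows lay under that minimum in at least 1 column, and 18 of them were at 0 in both.

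The cKO hearts carried a conditional knockout of Mettl1 (genotype M1cKO in the labels), and the Ctrl hearts served as their control. Both groups were C57BL/6 mice aged 4 weeks, and the series also held RNA-seq and Ribo-seq of such hearts, with 2 libraries per genotype and assay, and an H9C2 cell experiment that was not used here. For tRNA the labels list 4 heart libraries, marked DeM and ReD in each genotype, and the sources used here do not say which of them each column holds. The Cre driver, the alleles of the controls and the number of hearts per library are likewise not stated there.

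A tRNA reads a codon of the messenger RNA with its anticodon and delivers the matching amino acid to the ribosome. Isoacceptors carry the same amino acid with different anticodons, and isodecoders share an anticodon but differ elsewhere in the molecule. Mettl1, with its partner Wdr4, places 7-methylguanosine (m7G) in the variable loop of a subset of tRNAs, and in several systems loss of the mark lowers the amounts of some of its carriers. TRAC-seq, the assay named for this table, locates m7G by chemical cleavage of small RNA at the modified base followed by sequencing. If a column holds reads of cleaved RNA, its shares depend on cleavage as well as on tRNA amount. The ratios below are therefore of counts, and amount and cleavage cannot be told apart in them.

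The cKO column summed to 17071064 counts and the Ctrl column to 14290394, a ratio of 1.19. Every value below is therefore a share of its own column, and a log2 ratio is the log2 of the cKO share over the Ctrl share. With 1 column per genotype no value had a replicate, so no test was made and no difference can be set against the spread between hearts. Exact binomial (Clopper-Pearson) 95% intervals cover counting error alone. They spanned at most 2.27% of the share to either side for every amino acid label but the suppressor label Sup, and at most 19.2% for any of the 208 rows. Shares add to a fixed total, so a higher share of one tRNA means a lower summed share of the others.

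Some rows shared nearly the same values. In 14 groups of rows of 1 anticodon, 31 rows in all, the counts lay within 5% of each other in both columns, and the rows Ala-TGC-2 and Ala-TGC-3 were identical, at 29588 counts in cKO and 35571 in Ctrl. These 31 rows held 33.4% of cKO counts and 31.0% of Ctrl counts. Reads that match several tRNAs may have been entered in each of these rows, so the shares are of summed counts and not of reads.

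The tRNAs of 3 amino acids made up most of both columns. Glycine (Gly), glutamate (Glu) and histidine (His) tRNAs together held 65.9% of cKO counts and 63.1% of Ctrl counts. Within this large block the balance differed between genotypes, with a larger share of glycine and glutamate and a smaller share of histidine tRNA in cKO. Glycine tRNAs took 43.0% in cKO and 34.3% in Ctrl, a log2 ratio of 0.32. Glutamate tRNAs took 10.9% in cKO and 8.76% in Ctrl, also a log2 ratio of 0.32. Histidine tRNAs took 12.0% in cKO and 20.1% in Ctrl, a log2 ratio of -0.74. With near-equal rows counted once, the log2 ratios were 0.44 for glycine, 0.35 for glutamate and -0.70 for histidine.

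Of the 23 amino acid labels, 9 had a higher share in cKO and 14 a lower share. With near-equal rows counted once, 10 had a higher share, Ser among them (log2 ratio 0.012). When the His rows were left out of the column totals, 4 labels (Gly, Glu, Met and Phe) kept a higher share in cKO, and Val, Sup, Trp, Cys and Asp turned lower. Elongator methionine (Met) tRNAs, which read AUG codons inside coding sequences, had the highest ratio, with 4.47% in cKO and 2.85% in Ctrl (log2 ratio 0.65). Initiator methionine (iMet) tRNAs, which read the start codon, lay at the other end, with 0.419% in cKO and 0.704% in Ctrl (log2 ratio -0.75). Initiator and elongator thus differed in opposite directions although both carry the same anticodon letters.

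Proline (Pro) tRNAs had the lowest ratio, with 0.919% in cKO and 1.63% in Ctrl (log2 ratio -0.83). Tyrosine (Tyr) tRNAs held 1.61% in cKO and 2.63% in Ctrl (log2 ratio -0.71). Leucine (Leu) tRNAs held 1.19% in cKO and 1.73% in Ctrl (log2 ratio -0.53). These 3 groups, with His and iMet, were the labels furthest below an equal share in cKO. Alanine (Ala, -0.41), selenocysteine (SeC, -0.34), isoleucine (Ile, -0.26), threonine (Thr, -0.23), lysine (Lys, -0.22), asparagine (Asn, -0.19), arginine (Arg, -0.17) and glutamine (Gln, -0.09) followed, each with a lower share in cKO as a log2 ratio. These are ratios of summed counts. Of the 14 threonine rows 10 had a higher share in cKO, as had 2 of the 3 asparagine rows. In the other labels named here more rows were lower than higher. With near-equal rows counted once, the threonine ratio was -0.13.

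Phenylalanine (Phe) tRNAs had a higher share in cKO, with 0.439% in cKO and 0.370% in Ctrl (log2 ratio 0.24). The remaining labels had log2 ratios of 0.11 or less in size. Serine (Ser) tRNAs held 0.992% in cKO and 1.01% in Ctrl, and valine (Val) tRNAs held 2.04% in both, with overlapping intervals for valine. Tryptophan (Trp) and cysteine (Cys) had log2 ratios of 0.09 and aspartate (Asp) of 0.11, each of which turned lower without the His rows.

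**Figure D1:**
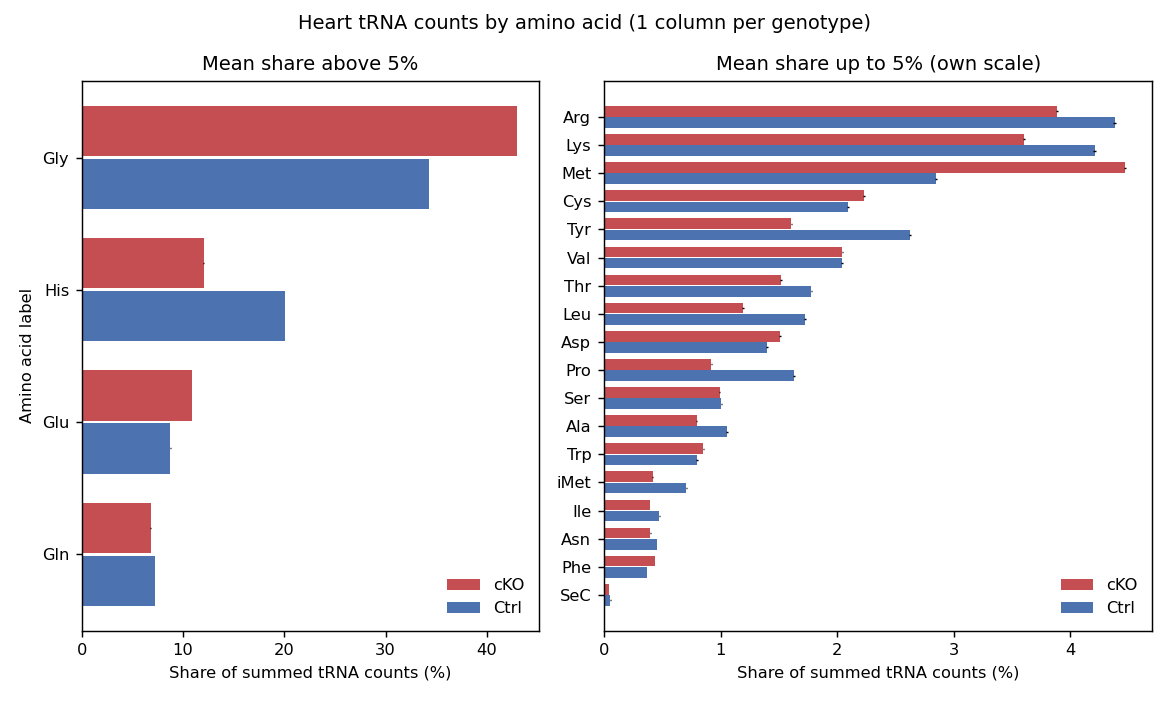
Share of all tRNA counts (%) for each amino acid label but Sup, cKO above Ctrl, with labels above 5% on the left and the others on their own scale on the right. Bars are single columns and the short lines are 95% binomial intervals. Gly, Glu and Met bars are longer in cKO, and His, Pro, Tyr, Leu and iMet bars are shorter.

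Summed by anticodon, 57 anticodon labels were listed and 50 had at least 1 row over the minimum. The other 7 (Ala-GGC, Cys-ACA, His-ATG, Ile-GAT, Pro-GGG, Sup-TTA and Val-GAC) had no row over it. Of the 50, 20 had a higher share in cKO and 30 a lower one, and none differed by 2-fold or more. Leu-TAA and Leu-CAA passed 2-fold lower when either the His rows or the 3 rows of largest mean share were left out of the column totals. A difference of at least 1.5-fold was met by 3 anticodons with a higher share in cKO (6.00% of the 50) and by 10 with a lower share (20.0%). Without the His rows in the column totals, 1 anticodon was at least 1.5-fold higher in cKO and 14 were lower.

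The 3 anticodons at least 1.5-fold higher in cKO were Gly-ACC, Met-CAT and Arg-TCT. Gly-ACC held 0.255% in cKO and 0.147% in Ctrl (log2 ratio 0.80), from a single row over the minimum. Its anticodon matched 1 RefSeq gene, n-TGacc1, on chromosome 11 at 48823728 to 48823801 (GRCm38.p6). Arg-TCT, the isoacceptor for AGA codons, held 0.402% in cKO and 0.268% in Ctrl (log2 ratio 0.59, just past the 1.5-fold limit), and all 5 of its rows had a higher share in cKO. Its place past the limit rests on the row Arg-TCT-5, without which it stood at a log2 ratio of 0.51.

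The 10 anticodons at least 1.5-fold lower in cKO included all 3 proline isoacceptors with a row over the minimum. Their log2 ratios were -0.80 for Pro-AGG, -0.81 for Pro-CGG and -0.85 for Pro-TGG. The 3 proline ratios were thus nearly the same. Near-equal rows were looked for only within an anticodon, so whether the proline anticodons share reads was not tested. The others were Leu-TAA (-0.998), Leu-CAA (-0.97), Thr-AGT (-0.86), iMet-CAT (-0.75), His-GTG (-0.74), Leu-CAG (-0.73) and Tyr-GTA (-0.71). Leu-TAA held 0.104% in cKO and 0.209% in Ctrl, and Leu-CAA held 0.282% in cKO and 0.552% in Ctrl.

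Isoacceptors of the same amino acid did not all differ alike, and their split within an amino acid does not depend on how the columns are scaled. Among threonine tRNAs, Thr-AGT made up 38.7% in cKO and 59.7% in Ctrl. Thr-TGT made up 49.0% in cKO and 32.7% in Ctrl, and Thr-CGT made up 12.4% in cKO and 7.57% in Ctrl. The most abundant threonine isoacceptor was thus Thr-TGT in cKO and Thr-AGT in Ctrl. The Thr-AGT difference came mainly from the near-equal rows Thr-AGT-1 and Thr-AGT-3, with 42630 and 42576 counts in cKO and 68988 and 68921 in Ctrl. With near-equal rows counted once, Thr-AGT had a log2 ratio of -0.75 in place of -0.86, and Thr-CGT made up 20.7% of threonine counts in cKO and 13.3% in Ctrl.

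Among leucine tRNAs, Leu-AAG made up 27.9% in cKO and 15.1% in Ctrl, and its log2 ratio over all tRNAs was 0.35. Leu-CAA made up 23.7% of leucine counts in cKO and 32.0% in Ctrl. Leu-CAG made up 27.4% in cKO and 31.5% in Ctrl, and Leu-TAA made up 8.76% in cKO and 12.1% in Ctrl. Leu-TAG made up 12.2% in cKO and 9.29% in Ctrl. With the near-equal rows Leu-AAG-1 and Leu-AAG-2 counted once, Leu-AAG made up 17.9% in cKO and 9.22% in Ctrl, and Leu-CAG made up 31.3% in cKO and 33.7% in Ctrl. All 3 Leu-AAG rows had a higher share of all counts in cKO, and all 10 rows of Leu-CAA, Leu-CAG and Leu-TAA had a lower share.

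Among arginine tRNAs, Arg-ACG made up 40.5% in cKO and 48.8% in Ctrl, whereas Arg-CCT made up 28.7% in cKO and 20.3% in Ctrl. Arg-TCT made up 10.3% in cKO and 6.11% in Ctrl. Arg-CCG and Arg-TCG each had a lower share of arginine counts in cKO, at 10.5% in cKO and 12.3% in Ctrl for Arg-CCG and at 10.0% in cKO and 12.4% in Ctrl for Arg-TCG. The pair that reads AGA and AGG codons (Arg-TCT and Arg-CCT) was thus higher, and the 3 that read CGN codons were lower.

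Smaller splits were seen elsewhere. Gln-CTG made up 75.6% of glutamine counts in cKO and 71.1% in Ctrl, Lys-TTT 26.6% of lysine counts in cKO and 22.8% in Ctrl, and Val-AAC 42.9% of valine counts in cKO and 38.8% in Ctrl. Ser-AGA made up 16.1% of serine counts in cKO and 11.6% in Ctrl. Glycine and proline isoacceptors had nearly the same split in both genotypes, with Gly-GCC at 79.5% of glycine counts in cKO and 80.0% in Ctrl and Pro-TGG at 49.6% of proline counts in cKO and 50.2% in Ctrl. With near-equal rows counted once, Gly-GCC stood at 63.6% in cKO and 62.6% in Ctrl and Gly-CCC at 34.5% in cKO and 35.5% in Ctrl.

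Over the 208 rows the median log2 ratio was -0.02, with an SD of 0.57 across rows and quartiles of -0.44 and 0.38. A higher share in cKO was found for 101 rows (48.6%) and a lower share for 107. At 2-fold or more, 10 rows were higher in cKO (4.81%) and 7 were lower (3.37%), against 5 higher and 13 lower when the His rows were left out of the column totals. The log2 shares of the columns correlated across rows with a Pearson coefficient of 0.98, a description over rows that share their libraries and, in part, their reads.

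The highest ratio belonged to Arg-TCT-5, with 6332 counts in cKO and 1613 in Ctrl (log2 ratio 1.72). The other 4 Arg-TCT rows lay between 0.45 and 0.65. Arg-TCT-5 is a minor row, at 0.0371% of cKO counts and 0.0113% of Ctrl counts, yet it carries the anticodon past the 1.5-fold limit. Without it Arg-TCT held 0.364% in cKO and 0.256% in Ctrl, a log2 ratio of 0.51 (1.42-fold). Cys-GCA-24 (706 counts in cKO and 246 in Ctrl) and Ala-AGC-1 (1014 in cKO and 375 in Ctrl) followed, with log2 ratios of 1.26 and 1.18. Gly-CCC-3, Gly-CCC-4 and Gly-CCC-2 had log2 ratios of 1.16, 1.08 and 1.06, whereas Gly-CCC-5, which carried most Gly-CCC counts, stood at 0.38. Cys-GCA-9 and Cys-GCA-15 both had log2 ratios of 1.14.

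Gly-GCC-6 was the only abundant row among the 10, with 324644 counts in cKO and 129496 in Ctrl, or 1.90% in cKO and 0.906% in Ctrl (log2 ratio 1.07). Phe-GAA-3 completed the 10, with 12327 counts in cKO and 5023 in Ctrl (log2 ratio 1.04). The main phenylalanine row, Phe-GAA-1, had a log2 ratio of 0.17 and the minor row Phe-GAA-2 of -0.85, so the isodecoders of this single anticodon ranged over both directions.

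The lowest ratios were those of Ala-AGC-7, with 1586 counts in cKO and 3755 in Ctrl (log2 ratio -1.50), and Ala-AGC-6, with 2091 in cKO and 4307 in Ctrl (-1.30). Ala-AGC thus supplied rows at both ends, and 5 of its 10 rows were higher in cKO and 5 lower. Pro-TGG-4 had 8989 counts in cKO and 17113 in Ctrl (log2 ratio -1.19). Val-CAC-4 had 647 counts in cKO and 1180 in Ctrl (log2 ratio -1.12). The other 3 rows at least 2-fold lower were leucine tRNAs. They were Leu-CAA-3 with 14006 counts in cKO and 24280 in Ctrl, Leu-CAA-1 with 17413 in cKO and 29697 in Ctrl, and Leu-TAA-2 with 16117 in cKO and 27259 in Ctrl. Lys-CTT-13 (-0.97), Thr-AGT-3 (-0.95) and Thr-AGT-1 (-0.95) lay just short of 2-fold lower.

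**Figure D2:**
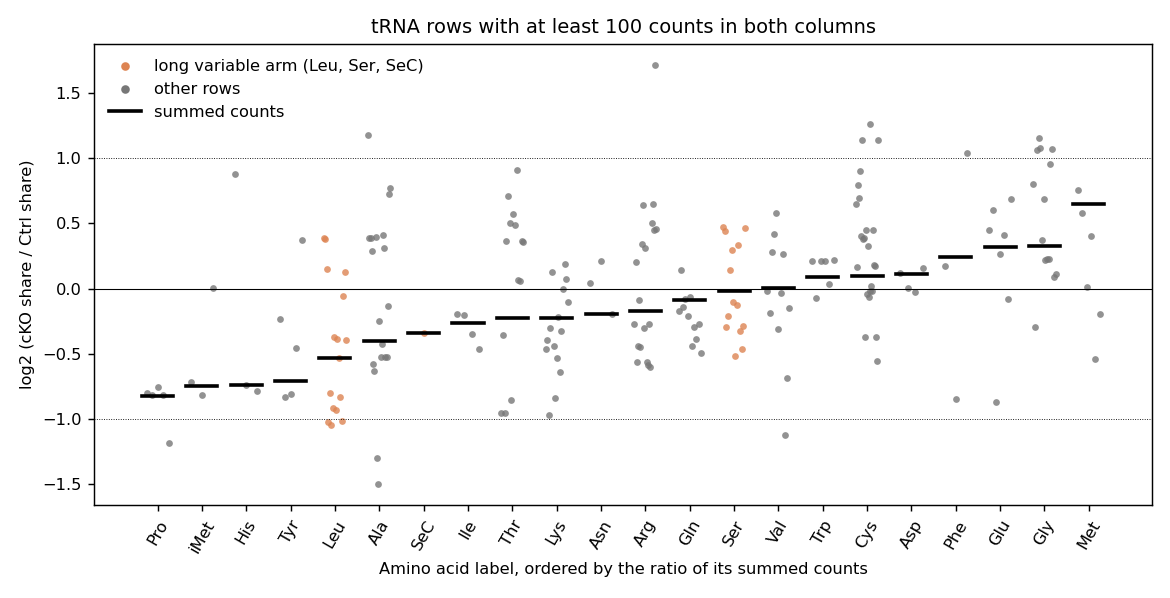
Log2 ratio of the cKO share over the Ctrl share for each of the rows with at least 100 counts in both columns, except the Sup row. Columns of points are amino acid labels in the order of their summed ratio (black bars), orange points are Leu, Ser and SeC rows, and dotted lines mark 2-fold. All Pro and Ile rows lie below 0, and the Ala, Leu, Thr and Cys rows spread to both sides.

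The 10 rows of largest mean share held 63.0% of cKO counts and 61.4% of Ctrl counts. The largest was His-GTG-2, with 1729360 counts in cKO and 2415308 in Ctrl, or 10.1% in cKO and 16.9% in Ctrl. His-GTG-3 was lower by a similar factor (log2 ratio -0.79), and the minor row His-GTG-1 had a higher share in cKO, with 0.0779% in cKO and 0.0423% in Ctrl. The near-equal rows Gly-GCC-2, Gly-GCC-3 and Gly-GCC-4 had log2 ratios of 0.22, 0.23 and 0.23, and Gly-GCC-1 stood at 0.69. Gly-CCC-5 held 7.98% in cKO and 6.15% in Ctrl, Glu-TTC-1 held 4.71% in cKO and 3.55% in Ctrl, and Glu-CTC-1 held 3.55% in cKO and 2.60% in Ctrl. Gln-CTG-2 held 2.93% in cKO and 2.66% in Ctrl. In these 10 rows the glycine and glutamate tRNAs had a higher share in cKO and the histidine tRNAs a lower one. Glu-TTC-2, a further abundant glutamate row outside the 10, held 2.19% in cKO and 2.31% in Ctrl (log2 ratio -0.08).

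Of the 43 anticodons with at least 2 rows over the minimum, 16 had all their rows on the same side, 7 higher in cKO and 9 lower. The 7 were Arg-TCT, Gly-GCC, Gly-TCC, Leu-AAG, Ser-AGA, Thr-CGT and Thr-TGT. Of these, Gly-TCC turned to a lower summed share in cKO when the His rows were left out of the totals. That setting lowered every log2 ratio by 0.14, more than the lowest rows of Thr-TGT (0.058) and Thr-CGT (0.065) stood above 0. Thr-TGT and Thr-CGT thus did not keep all their rows higher under it. The 9 were Arg-CCG, Arg-TCG, Gln-TTG, Ile-AAT, Ile-TAT, Leu-CAA, Leu-CAG, Leu-TAA and Pro-TGG. Near-equal rows, which may hold the same reads, were counted as separate rows here. The rows of Ile-AAT were such a pair, and Arg-TCG, Gln-TTG, Gly-GCC, Leu-AAG and Thr-TGT also held near-equal rows. Agreement of such rows adds little. The other 27 anticodons held rows on both sides. Cys-GCA, with 24 rows, had 17 higher and 7 lower in cKO.

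The major rows of initiator and elongator methionine tRNAs showed the same contrast. Both major elongator rows had a higher share in cKO, with 2.59% in cKO and 1.53% in Ctrl for Met-CAT-1 and 1.70% in cKO and 1.14% in Ctrl for Met-CAT-2. Both major initiator rows had a lower share, with 0.224% in cKO and 0.367% in Ctrl for iMet-CAT-1 and 0.185% in cKO and 0.327% in Ctrl for iMet-CAT-2. The minor rows Met-CAT-5 and Met-CAT-6 had log2 ratios of -0.54 and -0.20, on fewer than 1000 counts each in either column. The remaining initiator row over the minimum had a log2 ratio of 0.002.

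The paper's list of m7G-modified tRNAs was not used here, so 2 coarser groupings stand in for it. The first sets the class II tRNAs (Leu, Ser and SeC), which have a long variable arm in place of the short loop that holds m7G in other tRNAs, against all others. The 31 class II rows had a median log2 ratio of -0.29, with 10 higher and 21 lower in cKO, and 3 were at least 2-fold lower and 0 at least 2-fold higher. The 177 other rows had a median of 0.01, with 91 higher and 86 lower. Class II tRNAs summed to 2.23% of cKO counts and 2.79% of Ctrl counts, a log2 ratio of -0.32. By label the summed log2 ratio was -0.53 for Leu, -0.34 for SeC and -0.02 for Ser. With near-equal rows counted once, that of Ser was 0.012, so the lower share was not common to the whole class. Of the 16 leucine rows 12 were lower in cKO, against 8 of the 14 serine rows, and the SeC row had 7473 counts in cKO and 7928 in Ctrl.

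The second grouping takes 9 anticodon labels known as carriers of m7G from general knowledge (Phe-GAA, iMet-CAT, Met-CAT, Lys-CTT, Lys-TTT, Val-AAC, Val-CAC, Trp-CCA and Arg-TCT). This list was made after the counts were seen, and the tRNAs outside it include further carriers. Its values therefore describe the list alone and cannot set carriers of m7G against tRNAs without it. Its 48 rows were 24 higher and 24 lower in cKO, with a median log2 ratio of 0.00. The 160 rows outside it were 77 higher and 83 lower, with a median of -0.03. The 9 labels together held 11.7% of cKO counts and 10.6% of Ctrl counts, and 5 of them had a higher share in cKO and 4 a lower one. The summed log2 ratio of 0.14 rested on Met-CAT, without which the other labels held 7.20% in cKO and 7.77% in Ctrl (log2 ratio -0.11). It was -0.0028 when the His rows were left out of the column totals, which also turned Trp-CCA and left 4 labels higher in cKO. Within the list Met-CAT (0.65) and Arg-TCT (0.59) lay at the upper end and iMet-CAT (-0.75) and Lys-CTT (-0.30) at the lower end of the log2 ratios.

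The ratios were also read against features that the row names and RefSeq give. By the first base of the anticodon, which faces the third base of the codon, the median log2 ratio over rows was 0.17 for A (34 rows), -0.20 for C (73 rows), 0.17 for G (55 rows) and -0.09 for T (46 rows). The summed counts gave the opposite sign for each base, with log2 ratios of -0.30 for A, 0.16 for C, -0.06 for G and 0.02 for T, so the rows and the sums show no common direction by this base. By abundance, the rows in 4 equal groups of mean share had medians of 0.11 in the lowest group, 0.02 and -0.03 in the next ones and -0.13 in the highest, with a Spearman coefficient of -0.13 over the 208 rows. RefSeq listed 385 tRNA genes for 46 of the anticodons. Across these 46, the share followed gene number with a Spearman coefficient of 0.52 in cKO and 0.53 in Ctrl, and the log2 ratio had a coefficient of 0.01 with gene number. These coefficients describe anticodons or rows of the same columns and carry no test.

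**Figure D3:**
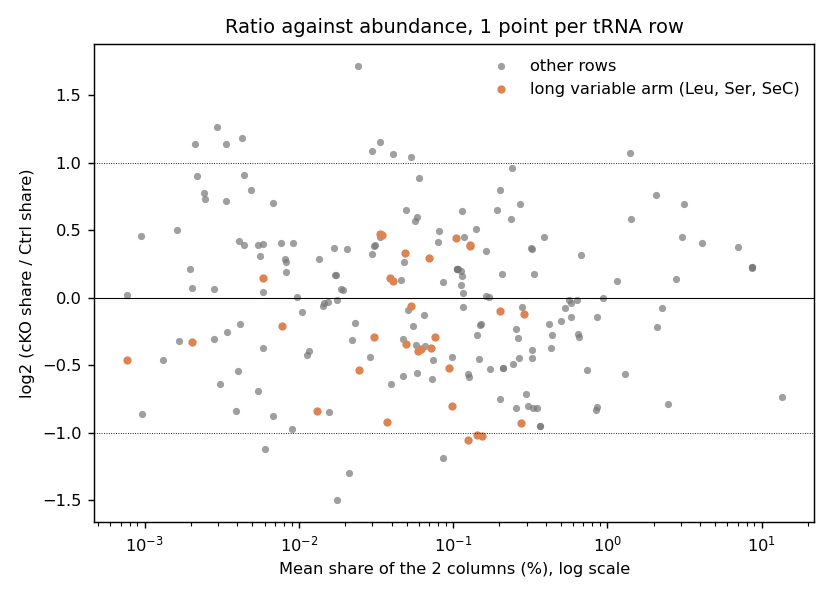
Log2 ratio of the cKO share over the Ctrl share (vertical axis) against the mean share of both columns in % (horizontal axis, log scale), 1 point per row with at least 100 counts in both columns. Orange points are Leu, Ser and SeC rows and dotted lines mark 2-fold. The most abundant point, His-GTG-2, lies at -0.74, and all 3 orange points past the lower dotted line are leucine tRNAs.

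Near the minimum of 100 counts, the rows just inside were Cys-GCA-28 (133 counts in cKO and 110 in Ctrl), Ser-GGA-1 (110 in cKO and 127 in Ctrl) and Arg-TCT-6 (187 in cKO and 114 in Ctrl). Those just outside were Ile-AAT-2 (167 in cKO and 96 in Ctrl), Gln-TTG-6 (95 in cKO and 114 in Ctrl) and Cys-GCA-25 (106 in cKO and 78 in Ctrl). Ser-GGA-1 alone represented its anticodon, which matched 1 RefSeq gene, n-TSgga1, on chromosome 11 at 100538158 to 100538230 (GRCm38.p6).

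The enzyme and the genes that make, process and degrade tRNA were measured with 2 libraries per genotype in heart RNA and in ribosome footprints, tested with edgeR's quasi-likelihood test and Benjamini-Hochberg adjustment over all genes. RNA libraries held 15052652 to 16844783 counts and footprint libraries 24892177 to 39250089. Over all genes 1150 rose and 882 fell in RNA and 1231 rose and 990 fell in footprints, against 1769 and 506 in RNA and 1639 and 657 in footprints when libraries were scaled by their totals alone and not by TMM. All 6 cardiomyocyte markers were present in every RNA library, and Alb, Apoa1 and Myh4, markers of liver and of fast skeletal muscle, had 0 or 1 count. Acta1, a skeletal actin gene that heart muscle can also express, had 1223 and 1432 CPM (counts set relative to the size of each library) in cKO and 206 and 159 CPM in Ctrl, and its part in the results was not tested. Ckm, also taken as a skeletal muscle marker, had 1591 and 1698 CPM in cKO and 1651 and 1569 CPM in Ctrl. Whether skeletal muscle was in the samples was not tested. In bulk hearts, fewer cells of a type and less RNA per cell cannot be told apart.

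Mettl1 had 2.49 and 2.52 CPM in cKO RNA and 4.31 and 3.76 CPM in Ctrl RNA, a log2 fold change of -0.69 that did not pass the test (edgeR adjusted p = 0.0664). In footprints it had 2.22 and 2.22 CPM in cKO and 6.28 and 6.62 CPM in Ctrl. Its footprints fell, with a log2 fold change of -1.54 (SE 0.21, edgeR adjusted p = 1.0e-04). Its locus on chromosome 10 overlaps Eef1akmt3, and how reads of overlapping genes were counted is not given. Wdr4, the partner subunit, had log2 fold changes of 0.23 in RNA (edgeR adjusted p = 0.383) and 0.41 in footprints (edgeR adjusted p = 0.208).

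RNA polymerase III transcribes tRNA genes. Of 25 genes for its subunits and factors, 4 rose and 0 fell in footprints, where 9.11% of all genes tested rose and 7.33% fell. The median log2 fold change of the 25 was 0.18 in footprints, against 0.00 over all genes tested. Polr3g, an alternative subunit of the enzyme, had 5.34 and 4.36 CPM in cKO footprints and 1.75 and 2.37 CPM in Ctrl footprints. Its log2 fold change was 1.22 (SE 0.24, edgeR adjusted p = 0.0025). Polr3gl, the paralogue that takes the same place, had a log2 fold change of -0.36 in footprints, which did not pass (edgeR adjusted p = 0.0820).

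Polr3d and Crcp, further subunits of the enzyme, rose in footprints by log2 fold changes of 0.70 (edgeR adjusted p = 3.9e-04) and 0.59 (edgeR adjusted p = 0.0025). Gtf3c6, a subunit of the factor that binds tRNA gene promoters, rose by 0.66 (edgeR adjusted p = 2.9e-04). The cKO libraries were above both Ctrl libraries for each of these 3 genes. This was also true of genes that did not pass, Polr3a, Polr3b, Polr3c and Polr3k among them, so it adds little to the calls.

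In RNA, 3 of the 25 genes rose and 2 fell, where 8.16% of all genes tested rose and 6.26% fell, and the median log2 fold change of the 25 was 0.02. The genes that rose were Polr3g (1.08, edgeR adjusted p = 0.0258), Crcp (0.48, edgeR adjusted p = 0.0452) and Polr3d (0.41, edgeR adjusted p = 0.0310). Those that fell were Bdp1 (-0.46, edgeR adjusted p = 0.0074), a subunit of the initiation factor TFIIIB, and Polr3gl (-0.36, edgeR adjusted p = 0.0300). Each of these 5 calls was lost in DESeq2 (adjusted p from 0.0561 to 0.263) and without the first cKO library. The Polr3g and Crcp calls were also lost without any other single library, and that of Polr3d without Ctrl 1 or cKO 2. That of Polr3gl was also lost without Ctrl 2 or cKO 2 and with library totals (edgeR adjusted p = 0.0835).

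**Figure D4:**
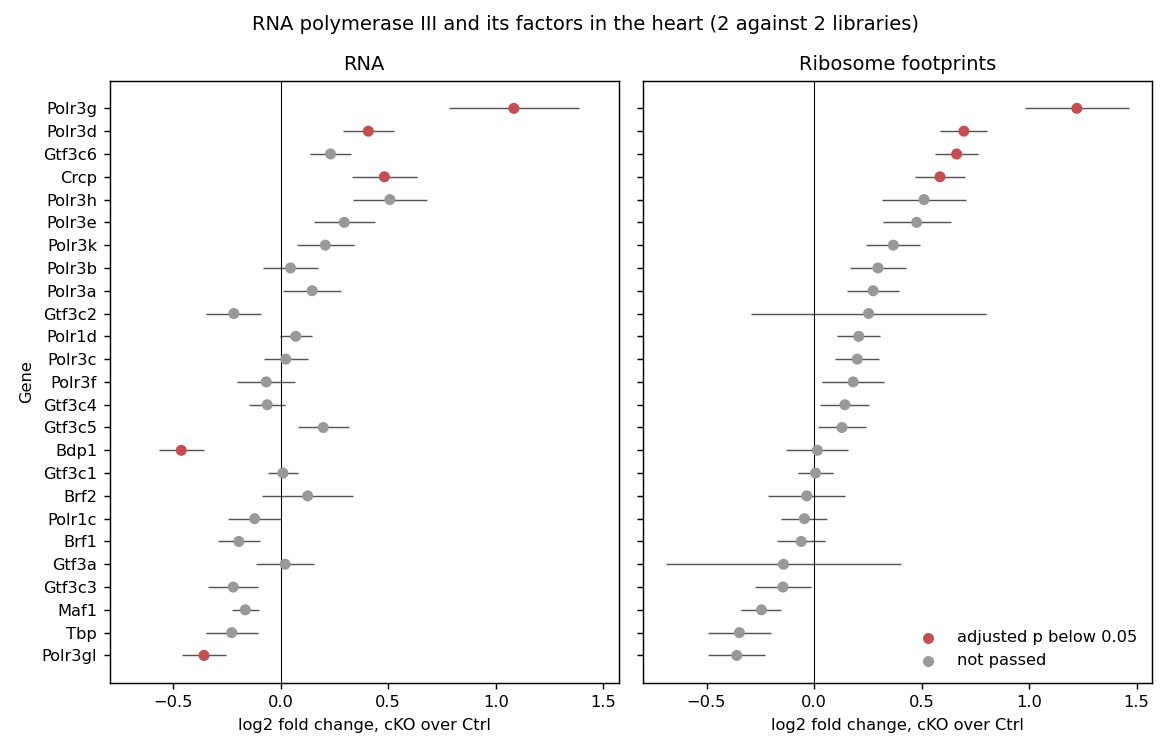
Log2 fold change of cKO over Ctrl for the 25 genes of RNA polymerase III and its factors, in heart RNA (left) and in ribosome footprints (right), with 2 libraries per genotype in each. Horizontal lines are the SE of the fold change and red points have an adjusted p below 0.05. Polr3g has the highest fold change in both panels, at 1.08 in RNA and 1.22 in footprints.

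Of 24 genes for tRNA end processing, splicing and export, 2 rose and 0 fell in footprints, a share near the 9.11% of all genes tested that rose there. These were Rpp14, a ribonuclease P protein, with a log2 fold change of 0.52 (edgeR adjusted p = 0.0078), and Clp1, an RNA kinase bound to the tRNA splicing endonuclease, with 0.55 (edgeR adjusted p = 0.0354). In RNA 1 of the 24 rose, Rpp14 (0.36, edgeR adjusted p = 0.0417), a gene that overlaps Htd2, where 8.16% of all genes rose. The Clp1 call in footprints was lost without any of the libraries cKO 1, Ctrl 1 and Ctrl 2 (edgeR adjusted p from 0.0742 to 0.384) and in DESeq2 (adjusted p = 0.0870), and the Rpp14 call without cKO 2 (0.0725) or Ctrl 2 (0.0568), all in edgeR. The Rpp14 call in RNA was lost without cKO 1 (edgeR adjusted p = 0.321) or Ctrl 1 (edgeR adjusted p = 0.200) and in DESeq2 (adjusted p = 0.194).

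Of 6 genes of tRNA decay and cleavage, Rnh1, which encodes the inhibitor of angiogenin and related ribonucleases, rose in footprints (0.32, edgeR adjusted p = 0.0112) and in RNA (0.40, edgeR adjusted p = 0.0037). Exosc10, an exosome nuclease, rose in footprints (0.30, edgeR adjusted p = 0.0195), and Xrn1, a cytoplasmic exonuclease, fell in RNA (-0.35, edgeR adjusted p = 0.0435). Over all genes tested 9.11% rose in footprints, and 8.16% rose and 6.26% fell in RNA, so calls on 6 genes say little of the list. The footprint calls of Rnh1 and Exosc10 were lost without either cKO library (edgeR adjusted p from 0.0958 to 0.219). The RNA call of Rnh1 was lost without cKO 1 (edgeR adjusted p = 0.0795), and that of Xrn1, which overlaps Gm16794, without cKO 1, cKO 2 or Ctrl 1 (edgeR adjusted p from 0.0705 to 0.283), in DESeq2 (adjusted p = 0.201) and with library totals (edgeR adjusted p = 0.114).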

How the data were processed

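The authors deposited whole-number counts with no normalization per tRNA for TRAC-seq, per gene for heart RNA and per open reading frame for heart Ribo-seq, as read from the values. Per the submitters' processing notes, cutadapt, STAR, HISAT2, featureCounts, StringTie, DESeq2, Bowtie, Bowtie2 and GRCm38 were used, with no word on which of them made which table. tRNA counts were divided by their column total. Rows were summed by the amino acid and anticodon in their names. RefSeq tRNA genes were matched by anticodon, without the methionine tRNAs, whose names mix both kinds. Codon demand and tRNA sequences were not analysed here. The members and gene lists were chosen with earlier results of these data known. Rows are named where they have the 10 highest or lowest ratios or the 10 largest mean shares, or belong to a group described, and genes where they pass an adjusted p of 0.05.

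Genes were tested on the deposited counts by the quasi-likelihood test of edgeR 4.0.16 under R 4.3.3, using TMM, filterByExpr and Benjamini-Hochberg adjustment over 14088 genes in RNA and 13514 in footprints. The frame with most footprints was kept per gene. CPM use TMM factors, except for cell type markers, which use library totals. DESeq2 1.42.0, other scalings and filters, a replicate block and leaving out each library were alternatives. Nothing in the labels says that replicates are separate animals, so p-values measure the spread between these libraries. The procedure was tested on simulated data.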

Additional observations from a re-analysis of the deposited data

How the results depend on the processing

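For the tRNA counts, every setting kept the direction of class II, with a summed log2 ratio of -0.30 under median-of-ratios factors, -0.41 with totals that leave out the 3 rows of highest mean share and -0.46 with totals that leave out the His rows. Leaving out the His rows lowered every log2 ratio by 0.14 and turned 6 of 50 anticodons (Asp-GTC, Cys-GCA, Gln-CTG, Gly-TCC, Sup-TCA and Trp-CCA) to a lower share in cKO. Leaving out the 3 rows turned 2, and median-of-ratios factors turned 1, Lys-TTT. Rows at least 2-fold higher in cKO numbered 6 without the 3 rows, 5 without the His rows and 6 at 1000 counts or more, and 27 were at least 1.5-fold higher. Rows at least 2-fold lower numbered 12 without the 3 rows, 13 without the His rows and 13 at 10 counts or more, and 33 were at least 1.5-fold lower. Anticodons at least 1.5-fold higher in cKO numbered 1 without the 3 rows and 1 without the His rows. Anticodons at least 2-fold lower numbered 2 under either of these totals, and amino acid labels higher in cKO numbered 4 without the His rows. The m7G short list had a summed log2 ratio of 0.16 under median-of-ratios factors, 0.051 without the 3 rows, -0.0028 without the His rows, 0.17 with near-equal rows counted once and -0.11 without Met-CAT. The His, near-equal-row, 1.5-fold anticodon, Arg-TCT-5, Met-CAT and m7G short list settings were chosen after seeing the data. Counting near-equal rows once gave 10 rows at least 2-fold higher and 5 lower.

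In heart RNA, 1150 genes rose and 882 fell, against 1769 and 506 with library totals and 623 and 457 in DESeq2, and leaving out a library gave 634 to 1069 and 521 to 933. In footprints, 1231 rose and 990 fell, against 1639 and 657 with library totals, and leaving out a library gave 667 to 1010 and 481 to 930. The lowest counts came without cKO replicate 1. Same-numbered libraries did not deviate together, with correlations of 0.009 in RNA and -0.040 in footprints. With the replicate block 1455 genes rose and 1290 fell in RNA, and 1472 rose and 1255 fell in footprints, and Mettl1 passed in RNA (edgeR adjusted p = 0.0499), as it did with other filters (0.0408 and 0.0437). Fold changes of genes that did not pass reversed in 3 cases. With a library left out, the log2 fold change of Clp1 in RNA ran from -0.18 to 0.19 (below 0 without cKO replicate 1 or Ctrl replicate 1), and that of Bdp1 in footprints from -0.053 to 0.073 (below 0 without cKO replicate 2 or Ctrl replicate 2). That of Xrn1 in footprints was 0.0067 with library totals. The causes were not tested. The footprint calls of Mettl1, Polr3d, Polr3g, Crcp and Gtf3c6 held in every alternative run. No tRNA value has a replicate, and depth limits only the rarest rows. Leaving out mitochondrial tRNAs was not run, since the table names none.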
